A study of Mus musculus with 8 samples.

Results

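The mouse microRNAs (miRNAs) miR-192, miR-194 and miR-215 are described here by 7 mature arms, chosen by name: mmu-miR-192-5p, mmu-miR-192-3p, mmu-miR-194-5p, mmu-miR-194-1-3p, mmu-miR-194-2-3p, mmu-miR-215-5p and mmu-miR-215-3p, written below without the species prefix. They are 7 of the 1881 miRNAs on the array. They were measured in exosomes, small vesicles that cells release, which had been isolated from mouse amniotic fluid on size-exclusion columns. The LPS group held 4 samples from preterm births of mice given lipopolysaccharide, a bacterial cell wall component that provokes inflammation, into the abdomen at 100 μg/kg on day 14 of pregnancy, with delivery after about 48 h. The cesarean group held 4 samples, and the labels do not say whether those mice had an injection. Every sample is labelled day 17, which conflicts with delivery about 48 h after day 14. A match in gestational age between LPS and cesarean samples is therefore not settled, and stage and treatment cannot be told apart. All LPS samples came from preterm births and all cesarean samples from cesarean sections, so treatment and way of delivery cannot be told apart either. Strain is not given, and the labels do not say whether samples came from separate animals, so p-values measure only the spread between samples, which may be technical.

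Mouse miR-192 and miR-194-2 are processed from neighbouring hairpins of 1 cluster, and miR-215 and miR-194-1 from those of another. Both clusters are best known from the epithelia of kidney and intestine, and from liver, and in human cells both are induced by the tumour suppressor p53. A miRNA finds its target mRNAs mainly through its seed, the bases just after its 5′ end, and usually 1 of the 2 arms of a hairpin is kept while the other is degraded.

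The mature 5p arms are shown because the results turn on them, as RefSeq gives them on GRCm38.p6 (5′ to 3′), with the seed, bases 2 to 8, in capitals.
miR-192-5p: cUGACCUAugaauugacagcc
miR-215-5p: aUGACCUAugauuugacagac
miR-194-5p: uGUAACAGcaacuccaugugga
miR-192-5p and miR-215-5p shared their seed with each other and with no other mature mouse miRNA in the RefSeq table, and they had 18 of 21 bases in common. Counted from 1 at the 5′ end of miR-192-5p, the substitutions in miR-215-5p were C1A, A12U and C20A. miR-194-5p had the same sequence from both of its genes, so the array could not tell Mir194-1 from Mir194-2. No other miRNA in the table had its seed. All 7 arms had a RefSeq sequence, and of the 3p arms only miR-194-2-3p shared a seed, with miR-6926-5p and miR-7055-5p, neither of which was tested.

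The Mir192 and Mir194-2 hairpins are shown for the positions of the arms, with the 5p arm, the one detected here, in capitals. RefSeq places both on the plus strand of chromosome 19 on GRCm38.p6.
Mir192: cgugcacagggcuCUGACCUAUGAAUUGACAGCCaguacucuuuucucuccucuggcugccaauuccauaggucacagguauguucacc
Mir194-2: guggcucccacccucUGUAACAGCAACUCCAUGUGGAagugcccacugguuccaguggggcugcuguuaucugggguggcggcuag
In the order of genes on that build, Mir194-2 and Mir192 were next to each other between Atg2a and Gm14963. Mir194-1 and Mir215 on chromosome 1 both lay within the span of Iars2, a gene on the opposite strand.

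Each arm had 2 probes, each printed as 15 spots, which match the 3′ part of the miRNA and differ by 1 base in length. The brighter probe of each 5p arm is shown because its level stands for the miRNA, with the bases that differ between the miR-192-5p and miR-215-5p probes in capitals.
miR-192-5p probe: gGctgtcaaTtcataggtc
miR-215-5p probe: gTctgtcaaAtcataggt
miR-194-5p probe: tccacatggagttgct
Over the 18 bases they share, the miR-192-5p and miR-215-5p probes differed at 2, and whether one miRNA binds the other's probe was not tested. On mm9, the build in the files, the miR-192-5p probe is mapped to chr19:6264860-6264877 and the miR-215-5p probe to chr1:187137493-187137509. The miR-194-5p probe is mapped to both chr19:6264664-6264679 and chr1:187137210-187137225. All of these positions lie in the miRNA itself.

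Before any scaling between arrays, the 5p arms stood above background in LPS exosomes and the 3p arms did not. The scanner software marks each spot that is well above background, and a probe was taken as such on an array if this held for a share of 0.5 or more of the spots kept. By that rule miR-192-5p was well above background on 4 LPS and 4 cesarean arrays, miR-194-5p on 4 LPS and 3 cesarean arrays, and miR-215-5p on 3 LPS and 0 cesarean arrays. None of the 939 kept spots of the 4 3p arms was well above background, and the scanner software detected none of these arms on any array. The background-subtracted signals of the 8 3p probes ran between -2.08 and 1.26 on LPS arrays and between -1.69 and 0.32 on cesarean arrays, where spots of the negative controls averaged between 0.84 and 1.79. The 3p arms therefore have no level here and were not tested, and that leaves 3 of the 7 arms in the comparison.

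**Figure D1:**
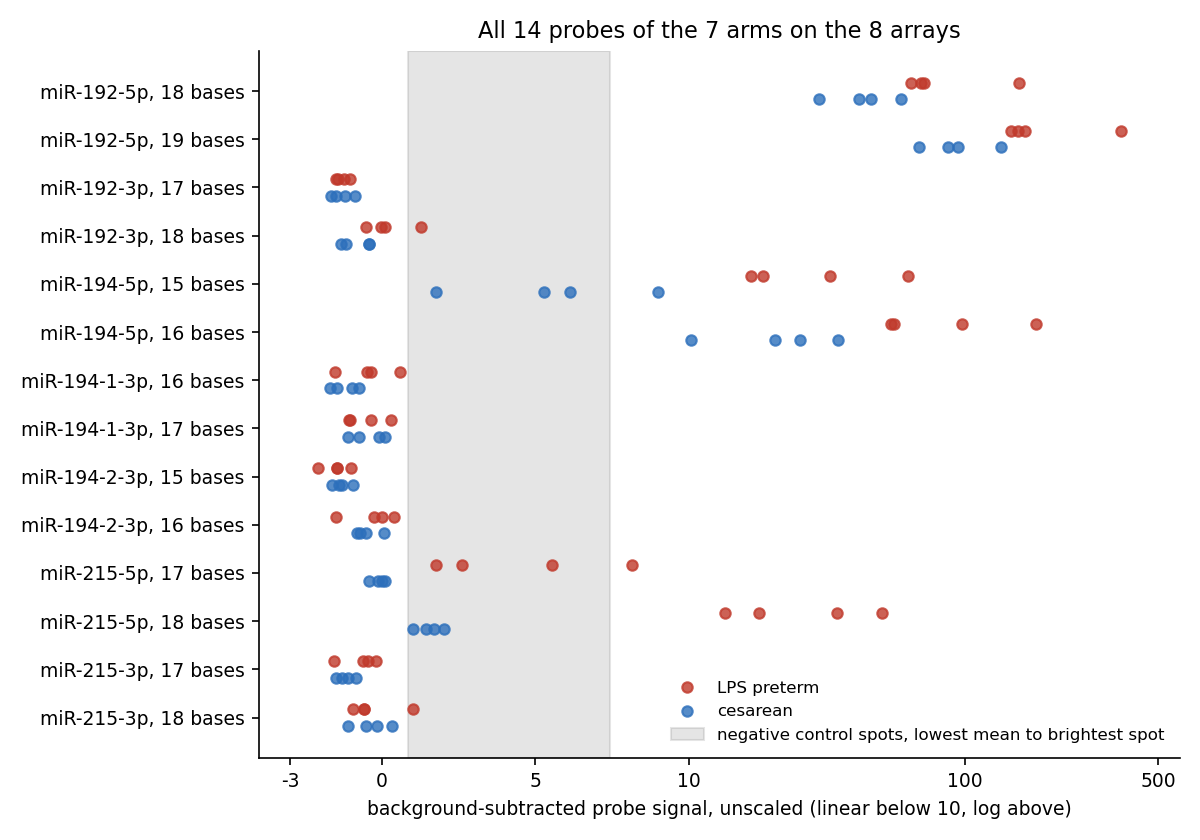
Background-subtracted, unscaled signal (horizontal axis, linear below 10 and logarithmic above) of the 14 probes on the 4 LPS preterm arrays (red) and the 4 cesarean arrays (blue), 1 point per array. The grey band runs between the lowest mean and the brightest single spot, 7.43, of the negative controls. All 8 probes of the 3p arms lie at or below 1.26, while the longer probes of the 5p arms reach 367, 180 and 50.02 on LPS arrays.

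Unscaled signals of the 5p arms already fell into separate ranges. The brighter miR-192-5p probe read between 147 and 367 on LPS arrays, against 68.1 to 135 on cesarean arrays. For miR-194-5p the range was 53.9 to 180 on LPS arrays, against 10.2 to 34.7 on cesarean arrays. In each case the lowest LPS array was above the highest cesarean array, by a small margin for miR-192-5p. The share of all tested miRNAs that separate in this way before scaling was not counted. With no scaling, both of these arms missed the threshold of the limma test, with an adjusted p of 0.372 for miR-192-5p and 0.137 for miR-194-5p. The median of all tested miRNAs moved to -0.20. The arrays themselves covered like ranges: the 75th percentile of signal was 7.72 to 8.67 (log2) on LPS arrays and 7.74 to 8.81 on cesarean arrays, and 405 to 519 miRNAs were well above background on LPS arrays, against 413 to 554 on cesarean arrays. All 8 arrays were on 1 slide, with the LPS arrays in row 1 and the cesarean arrays in row 2, so row and group cannot be told apart. Each of the 4 slide columns held 1 array of each group.

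Levels from here on are log2 signals of the brighter probe, after each array was scaled by its 75th percentile and raised to a floor of 3.75, the level of the dimmest signals well above background. Differences are LPS minus cesarean, tested with limma over the 470 miRNAs that were well above background on 3 or more of a group's 4 arrays. A miRNA rose or fell when its Benjamini-Hochberg adjusted p, over all 470, was under 0.05. By this test 2 of the 3 arms tested rose, miR-192-5p and miR-194-5p, where 12 of the 470 miRNAs, or 2.55%, did so, and 23, or 4.89%, passed in either direction. The median difference of all tested miRNAs was -0.06, with 214 higher and 256 lower in LPS exosomes. All 3 arms had LPS levels that did not overlap the cesarean levels, as did 9.79% of tested miRNAs in that direction, but miR-215-5p entered the test through its LPS arrays alone, so its groups had to differ.

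miR-192-5p, which in mouse kidney is known from the tubules and from work on fibrosis, had levels of 7.58, 7.49, 7.98 and 7.61 in LPS exosomes. In cesarean exosomes its levels were 6.40, 6.12, 6.48 and 6.87. LPS replicate 3 was the highest of all arrays and cesarean replicate 2 the lowest, and the lowest LPS level lay above the highest cesarean level, that of replicate 4. The means were 7.67 ± 0.21 in LPS and 6.47 ± 0.31 in cesarean exosomes (SD, n = 4 each), and the difference was 1.20 ± 0.24 (SE), with a 95% interval of 0.67 to 1.73 and an adjusted p of 0.0268 by limma. Among the 470 miRNAs it ranked 25 by difference, counted down from the most positive, and 8 by p. Its shorter probe of 18 bases gave 6.46 ± 0.21 in LPS and 5.34 ± 0.34 in cesarean exosomes, and a difference of 1.13 with an adjusted limma p of 0.0355 when it stood for the miRNA.

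miR-194-5p, the partner of miR-192 in 1 cluster and of miR-215 in the other, had levels of 6.09, 6.74, 6.96 and 6.16 in LPS exosomes. In cesarean exosomes its levels were 4.44, 4.05, 3.75 and 4.97. The third of these stood at the floor, with 4 of its 15 spots well above background, so by the rule used here it is not a detection. The value measured there before flooring, 3.737, was just below the floor of 3.753. The scanner software's own call was that miR-194-5p was detected on all 4 cesarean arrays. LPS replicates 2 and 3 were the high ones and cesarean replicate 4 came nearest to the LPS range, which it did not reach. The difference was 2.18 ± 0.32 (SE), a 4.54-fold higher level, with a 95% interval of 1.46 to 2.90 and an adjusted p of 0.0107 by limma. It ranked 2 of the 470 by p, and 2 by difference counted down from the most positive, behind miR-122-5p. The shorter probe of 15 bases was well above background on 57 of 60 LPS spots and on 0 of 58 cesarean spots. Its unscaled signals were 16.8 to 62.1 on LPS arrays and 1.77 to 9.004 on cesarean arrays, again without overlap.

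miR-215-5p, which shares its seed with miR-192-5p, was above background on LPS arrays only. Its brighter probe had unscaled signals of 34.5, 17.9, 50.02 and 13.5 on LPS arrays, against 2.04, 1.01, 1.68 and 1.44 on cesarean arrays. The cesarean values lay near the negative control spots of those arrays, whose means were 1.115 to 1.70 (SD 1.74 to 2.15), while each LPS value was above the brightest negative control spot of its array, at most 6.91. In LPS replicate 4 only 7 of 15 spots were well above background, so by the rule used here this array gives a level but not a detection. The scanner software's own call was that miR-215-5p was detected on all 4 LPS arrays. After scaling, the LPS levels were 5.41, 4.29, 5.11 and 4.16 and all cesarean levels stood at the floor. LPS replicates 1 and 3 were high and replicates 2 and 4 low. Against the dimmest probe well above background on each cesarean array (mean 3.45), the LPS mean of 4.74 ± 0.61 was at least 2.45-fold higher. That level is no strict limit of detection: LPS replicate 4 read above its own array's, 3.94, without being well above background. The arm also entered the test through its LPS arrays alone, so a gap was set in advance. The fitted difference against the floor, 0.99 ± 0.30 (SE), missed the threshold with an adjusted limma p of 0.0771. Its shorter probe was not well above background on any array, with 1.77 to 8.15 unscaled on LPS arrays and -0.42 to 0.11 on cesarean arrays.

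**Figure D2:**
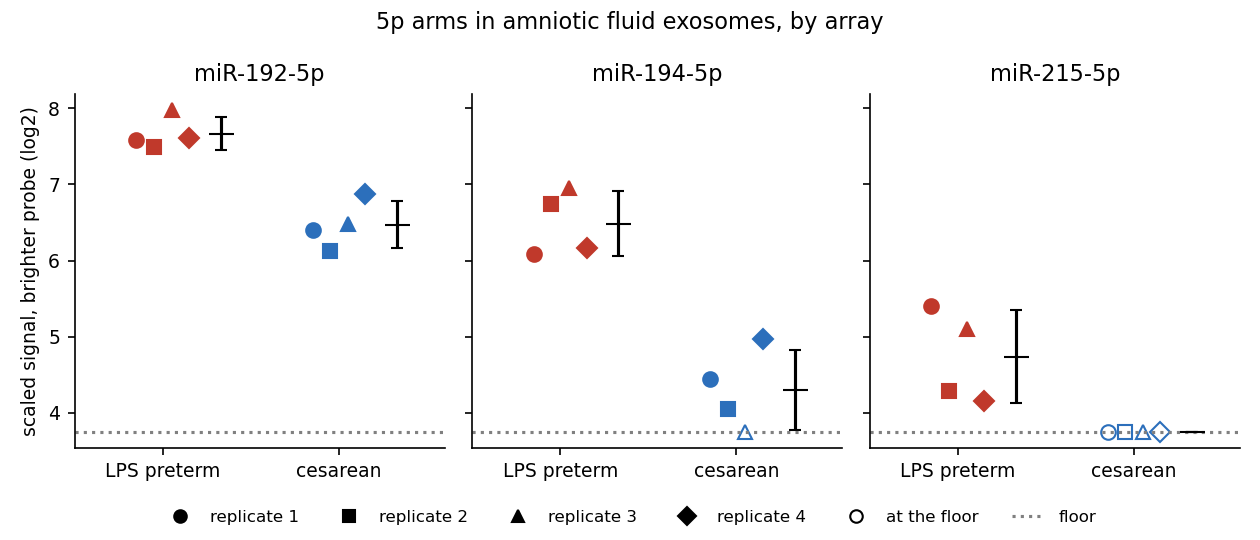
Scaled log2 signal (vertical axis) of the brighter probe of miR-192-5p, miR-194-5p and miR-215-5p on each LPS preterm array (red, left in each panel) and each cesarean array (blue, right), with mean and SD beside the points (n = 4). Open symbols stand at the floor of 3.75 (dotted line), and no LPS array lies within the cesarean range of the same miRNA.

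In each column of the slide 1 array of each group sat above the other. Since their LPS levels all lay above their cesarean levels, miR-192-5p and miR-194-5p had to have positive differences within columns. For miR-192-5p they were 1.18, 1.37, 1.501 and 0.74 in columns 1 to 4, and for miR-194-5p 1.64, 2.69, 3.20 and 1.19, the third against a cesarean value at the floor. Column 4 had the lowest value for both. For miR-215-5p the LPS levels lay 1.65, 0.53, 1.35 and 0.41 above the floor, which are distances to the floor and not differences between 2 measured levels. With the column as a block in the limma fit the adjusted p became 0.124 for miR-192-5p, 0.0714 for miR-194-5p and 0.195 for miR-215-5p, so that both calls were lost, and 1 miRNA in all passed instead of 23. Leaving out any 1 array kept the miR-194-5p call (adjusted limma p between 0.00805 and 0.0458). The miR-192-5p call was lost without LPS replicate 2 or 3 or without cesarean replicate 1, 2 or 3, with differences between 1.08 and 1.25 and adjusted limma p between 0.0566 and 0.0812.

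The size of the miR-194-5p difference moved with the treatment of dim signals. With the normexp correction, which models background and was run with an offset of 50 added to every signal, and scaling by the 75th percentile, its difference was 0.98 and that of miR-192-5p 0.85, both still past the threshold. The added offset by itself shrinks log differences of dim probes, and its share in this was not tested apart from the correction. In the value table that the authors deposited, on a log2 scale, the averages were 5.64 ± 0.46 for LPS and 3.37 ± 0.39 for cesarean arrays for miR-194-5p, a difference of 2.27. For miR-215-5p the deposited values averaged 3.55 ± 0.57 in LPS and 2.16 ± 0.02 in cesarean arrays. That difference of 1.40 passed the threshold (adjusted p = 0.0332 by limma), with cesarean values that stand for an undetected miRNA, while the 3p arms differed by 0.01 to 0.03 in the same table. These values come from the authors' own normalization, for which the sources used here give neither a method nor a background step.

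**Figure D3:**
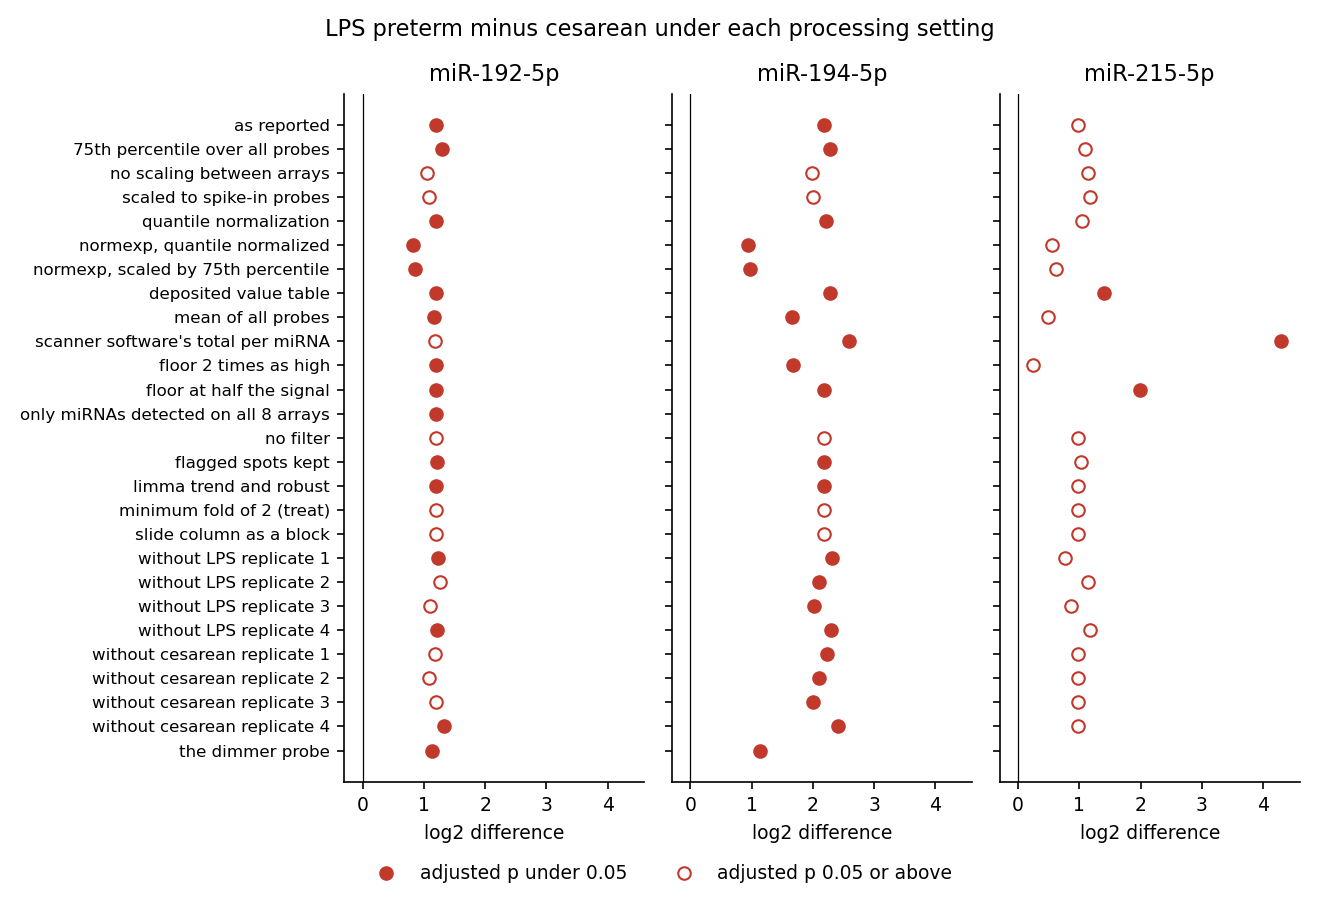
Log2 difference, LPS preterm minus cesarean (horizontal axis), for the 3 5p arms under each processing setting (rows), filled where the adjusted limma p was under 0.05 and open otherwise. All points lie above 0. miR-194-5p ranges between 0.94 and 2.60 and miR-215-5p between 0.25 and 4.29. In 2 rows some arms have no point, because the filter or the undetected shorter probe left no value for the arm.

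Differences within an array cancel the scaling between arrays except where a value stands at the floor, as miR-194-5p does in cesarean replicate 3. The comparison lists below can hold such values too: miR-204-5p, known from kidney, was well above background on 3 LPS and 2 cesarean arrays. An exact permutation test over the 70 allocations of 4 and 4 arrays was run on 5 differences, with adjustment over the 5. Its smallest two-sided p is 0.0286. The differences set changes side by side, since levels of different probes cannot be compared. The first asked whether the cluster partners moved by the same amount. miR-194-5p minus miR-192-5p lay between -1.498 and -0.76 on LPS arrays and between -2.73 and -1.90 on cesarean arrays, so the groups did not overlap, and miR-194-5p rose by 0.98 more than miR-192-5p (exact permutation p = 0.0286, adjusted 0.0476). This excess was 0.13 with normexp and its offset of 50 (adjusted exact p = 0.476) and 0.48 with a floor 2 times as high (adjusted exact p = 0.107), so its size depended on how dim signals were treated. It was 1.08 in the deposited value table (adjusted exact p = 0.0357).

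Other miRNAs known from kidney, among them the miR-30 family and the Hox-cluster miRNAs miR-10 and miR-196, formed a list of 12. Of these 11 were tested: none rose, 1 fell (2.34% of all 470 did), and their median difference was 0.19 with a range of -1.23 to 0.69, against -0.06 over all 470. The one that fell was miR-196a-5p, carried in the Hox clusters, with 4.62 ± 0.26 in LPS and 5.85 ± 0.27 in cesarean exosomes (difference -1.23, adjusted p = 0.0268 by limma). miR-30d-5p, at 0.69 ± 0.28 (SE, adjusted p = 0.166 by limma), and miR-30b-5p, at 0.37 ± 0.23 (adjusted p = 0.340 by limma), did not pass. Within arrays, miR-192-5p minus the mean of these 11 averaged 1.09 on LPS and 0.02 on cesarean arrays, a difference of 1.08 (exact permutation p = 0.0286, adjusted 0.0476, no overlap). For miR-194-5p the same measure averaged -0.09 on LPS and -2.15 on cesarean arrays, a difference of 2.06 with the same p. With normexp, with the mean of all probes and with the higher floor, both kept their direction and the smallest possible exact p, 0.0286. They missed the threshold there (adjusted exact p = 0.0714) because miR-194-5p minus miR-192-5p, adjusted together with them, no longer had that p.

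The miR-200 family, whose 5 members mark epithelium in general, was higher in LPS exosomes too. Of the 5, 3 rose, miR-200c-3p by 1.42, miR-200a-3p by 1.23 and miR-200b-3p by 1.08, the median difference was 1.23, and the family mean was 7.60 to 8.28 on LPS arrays and 6.54 to 7.09 on cesarean arrays. Within arrays, miR-192-5p minus the family mean lay between -0.79 and 0.01 on LPS arrays and between -0.96 and -0.06 on cesarean arrays. The difference of -0.03 was not past the threshold (exact permutation p = 0.971, adjusted 0.971), ranged between -0.23 and 0.10 with any 1 array left out, and does not show that both moved alike. miR-194-5p minus the family mean differed by 0.95 and missed the threshold (exact permutation p = 0.0571, adjusted 0.0714).

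**Figure D4:**
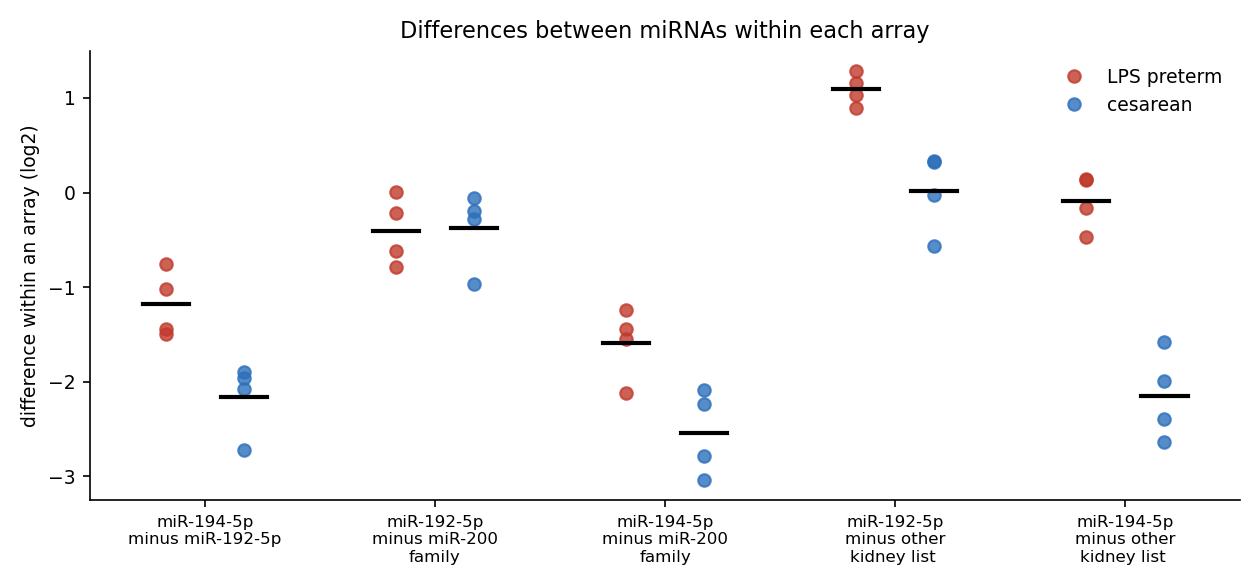
Difference between a 5p arm and its comparison on the same array (vertical axis, log2), on LPS preterm arrays (red, left of each pair) and cesarean arrays (blue, right), 1 point per array with the group mean as a bar. miR-192-5p minus the miR-200 family has overlapping groups, while miR-194-5p minus the other kidney list lies between -0.47 and 0.14 on LPS arrays and between -2.64 and -1.58 on cesarean arrays.

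Of 4 other intestinal miRNAs, 2 were tested and neither passed. miR-31-5p had a difference of 0.72 ± 0.36 (SE, adjusted p = 0.237 by limma), and miR-375-3p, known from endocrine cells, 0.05 ± 0.44 (adjusted p = 0.955 by limma). Of 9 other miRNAs known to be induced or matured under p53, 6 were tested and none passed, with a median of 0.53. miR-34a-5p, the best known of them, had a difference of 0.81 ± 0.26 (SE, adjusted p = 0.0846 by limma).

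**Figure D5:**
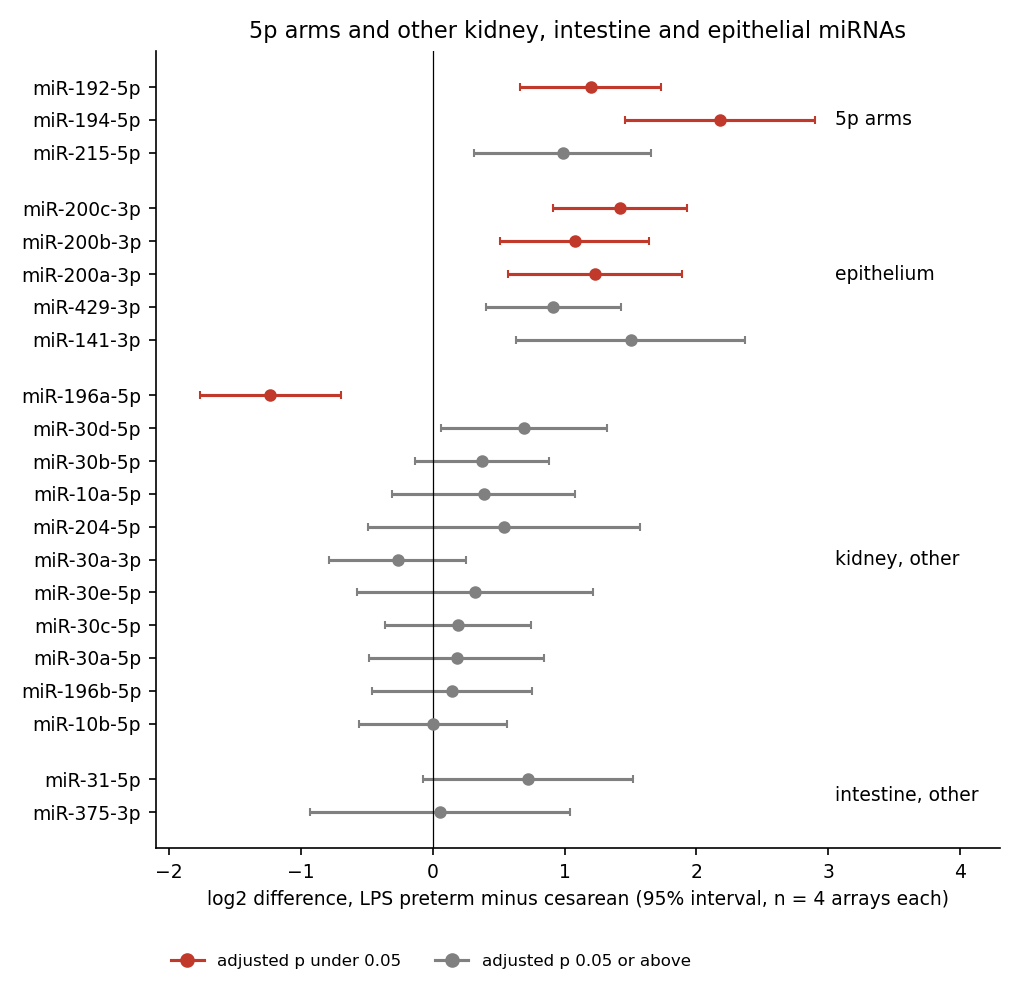
Log2 difference with its 95% interval (horizontal axis, LPS preterm minus cesarean, n = 4 arrays each) of the 3 5p arms, the miR-200 family and the other kidney and intestine miRNAs tested, red where the adjusted limma p was under 0.05. The intervals of miR-192-5p and miR-194-5p lie above 0, and of the 11 other kidney miRNAs the one in red, miR-196a-5p, lies below it.

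Liver also makes miR-192 and miR-194, and its defining miRNA, miR-122-5p, varied widely between arrays. Its levels were 8.28, 5.04, 9.81 and 5.56 in LPS exosomes and 3.75, 7.02, 3.75 and 4.97 in cesarean exosomes, with 2 of the cesarean values at the floor, and its difference of 2.30 ± 1.07 (SE) did not pass (adjusted p = 0.211 by limma). By the brighter probe, LPS replicates 1 and 3, the ones high in miR-122-5p, were also the ones high in miR-215-5p. In the scanner software's total for miR-215-5p, LPS replicate 3 was instead the lowest of its group, at 16.7. LPS replicates 1 and 3 also stood apart in the skin list, with means of 9.27 and 7.86 against 5.86 and 5.94 in LPS replicates 2 and 4. In the striated muscle list their means were 7.78 and 8.49, against 4.88 and 5.15. LPS replicate 3, the highest in miR-122-5p, was also the highest of all arrays in miR-192-5p and miR-194-5p. LPS replicate 1, the next highest in miR-122-5p, had the lowest miR-194-5p level of its group, 6.09, and a miR-192-5p level of 7.58. Cesarean replicate 2, the highest of its group in miR-122-5p, was the lowest of all in miR-192-5p. In these mixed exosomes, fewer vesicles of a tissue and less miRNA in each cannot be told apart.

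Markers of other cell types were mostly not past the threshold. Of 3 red blood cell miRNAs 1 passed, miR-144-3p, which was at the floor on all cesarean arrays and entered the test through its LPS arrays alone, so its groups had to differ. The list's mean was 8.78 to 9.38 on LPS arrays and 7.92 to 8.60 on cesarean arrays. This mean includes miR-144-3p, so part of the gap was set in advance. The other members, miR-451a and miR-486a-5p, had differences of 0.99 and 0.83, did not pass, and each overlapped between the groups. Of 3 leukocyte miRNAs tested 1 rose, miR-142a-3p, where 2.55% of all 470 did. The others, miR-342-3p and miR-223-3p, had differences of -0.45 and 0.09 and did not pass. The list means were 6.92 to 7.52 on LPS arrays and 6.62 to 7.03 on cesarean arrays. No miRNA of the skin list (2 tested), the striated muscle list (3) or the mesenchyme list (4) passed, and the ranges of the list means overlapped between the groups. In the mesenchyme list miR-214-3p, at -1.34 (adjusted p = 0.0640 by limma), and miR-199a-3p, at -0.98 (adjusted p = 0.0907 by limma), had negative differences, and miR-145a-5p and miR-143-3p positive ones of 0.71 and 0.62. Of 3 miRNAs known from ciliated airway none was tested, being too dim. The part of any of these in the results for miR-192-5p, miR-194-5p and miR-215-5p was not tested.

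After each group's mean was subtracted, the tested miRNAs that varied most like miR-192-5p and miR-194-5p were listed. The arms described here were left out of these lists by rule, so no cluster partner could appear in them. For miR-194-5p the 5 most alike were miR-434-5p (Pearson r = 0.948 over 8 arrays), miR-376a-3p (0.906), miR-376b-3p (0.874), miR-382-3p (0.868) and miR-30a-5p (0.820). For miR-192-5p they were miR-434-3p (0.875), miR-369-5p (0.767), miR-154-5p (0.760), miR-433-3p (0.752) and miR-434-5p (0.752). Except for miR-30a-5p these are miRNAs of the imprinted Dlk1-Dio3 locus, which is expressed in many fetal tissues. miR-192-5p and miR-194-5p themselves had r = 0.652 over the 8 arrays (Spearman rho 0.333), and miR-194-5p ranked 10 of 469 in likeness to miR-192-5p. All of these values share the arrays and their scaling, and they are descriptions of 8 arrays.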

How the data were processed

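The 8 samples were hybridized to single-colour Agilent mouse miRNA arrays. The spot intensity values are, per the file headers, linear background-subtracted signals from Agilent Feature Extraction 10.7.1.1 with arrays not yet normalized to each other (version 9.1 per the submitters' processing notes). The labels describe Cy3-labelled cRNA, so how miRNAs were labelled is not settled. The value table deposited by the authors holds normalized log2 values, with column medians of 2.14 to 2.15. Each column correlated best with its own array's scanner values, and its centring and floor stay unknown.

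Control spots and spots with outlier marks were left out. Signals were scaled per array by the 75th percentile over 618 probes detected on all arrays and floored at 13.5, and the brightest probe stood for each miRNA. The LPS and cesarean groups were set against each other with limma 3.58.1 (R 4.3.3), and 5 within-array differences by a two-sided exact permutation test. limma was tested on simulated data. An at-least fold sets the LPS mean against, per cesarean array, the probe's own signal or, where higher, that array's dimmest probe well above background. Plots used matplotlib 3.10.9 in Python 3.11.15.

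All 7 arms were named, with up to 3 miRNAs of each comparison list by smallest p and the 5 most alike. Members and lists were chosen with earlier results of these data known. The labels pair no samples, and array number limits precision. Alternatives covered scaling, background correction, value table, probe summary, floor, filter, test, slide column and each array left out.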

Additional observations from a re-analysis of the deposited data

How the results depend on the processing

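miR-192-5p and miR-194-5p were higher in LPS exosomes under every setting that gave a value. The call for miR-192-5p was lost with no scaling (1.05), spike-in scaling (1.07), the scanner software's totals (1.17), and, at an unchanged 1.20, with no filter, a minimum fold of 2 (limma's treat) and the slide column as a block. That for miR-194-5p was lost with no scaling (1.99), spike-in scaling (1.9995) and, at 2.18, with no filter, treat and the block. miR-215-5p passed with the value table (1.40), the totals (4.29) and a floor 0.5 times as high (1.99), values that depend on where each setting places a miRNA undetected on all cesarean arrays and that are not measured differences. With any 1 array left out, the differences were 1.08 to 1.33 for miR-192-5p, 1.9975 to 2.40 for miR-194-5p and 0.77 to 1.18 for miR-215-5p. The shorter probes of the 5p arms were added as an alternative after seeing the data.

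The 23 miRNAs that passed became 14 with the percentile over all probes, 1 with no scaling, 1 with spike-in scaling, 37 with quantile normalization, 9 with normexp and percentile scaling, 6 with the totals, 15 with only miRNAs detected on all 8 arrays, 2 with no filter, 0 with treat (6 at an unadjusted p under 0.05) and 1 with the block, and 3 to 79 with any 1 array left out, 79 without LPS replicate 1. miR-194-5p and miR-215-5p had no value with only miRNAs detected on all arrays, and the shorter miR-215-5p probe gave none.

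Within arrays, miR-194-5p minus miR-192-5p was 0.13 with normexp, 0.50 with the mean of all probes and 0.48 with the floor 2 times as high, and 0.80 to 1.09 with any 1 array left out. miR-192-5p minus the miR-200 family, -0.03, turned to 0.012 with the mean of probes and 0.034 with the higher floor, and ran between -0.23 and 0.10 with any 1 array left out. miR-194-5p minus that family passed in the value table (0.997), and ran between 0.78 and 1.13 with 1 array left out, passing without LPS replicate 1. Against the other kidney miRNAs, under normexp, the mean of probes and the higher floor, miR-192-5p gave 0.72, 1.04 and 1.06 and miR-194-5p 0.85, 1.54 and 1.54, each at adjusted exact p = 0.0714. The exact p of each stayed at the smallest possible, 0.0286, and the adjusted value rose with the weaker miR-194-5p minus miR-192-5p. With any 1 array left out, the differences against the other kidney miRNAs were 0.88 to 1.18 and 1.90 to 2.25. The causes of the changes in size were not tested. No paired analysis was possible because the labels pair no samples; the block above is the slide column.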

Other observations

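The scanner software's own total for miR-215-5p, which it builds from all spots of the miRNA, ordered the LPS arrays differently from the brighter probe. The totals were 84.1, 56.7, 16.7 and 44.1 on LPS arrays and 1.20, 0.93, 1.07 and 1.04 on cesarean arrays, where the software did not detect it. LPS replicate 3 had the lowest total but the highest unscaled probe signal of the LPS group, 50.02. For miR-192-5p and miR-194-5p the same replicate had the highest total, 150 and 69.6.

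The spots of 1 probe on 1 array varied little for miR-192-5p, with a coefficient of variation of 3.38% to 7.14% on LPS arrays and 3.04% to 7.76% on cesarean arrays. For miR-194-5p it was 3.24% to 10.1% on LPS arrays and 8.35% to 35.9% on cesarean arrays, and for miR-215-5p 8.75% to 18.7% on LPS arrays.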
